A study of Mus musculus with 6 samples.

Results

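The mitochondrial protein import machinery was described in interscapular brown adipose tissue of mice, a fat depot of the upper back that burns fuel for warmth, after 24 h in the cold. It was taken as 33 genes by their GENCODE M21 symbols: subunits of the outer and inner membrane translocases, the import motor, the chaperones of the intermembrane space, the sorting complex for outer membrane barrels, the disulfide relay and a cytosolic delivery factor. All 33 were among the 21730 genes with a read. The list follows the role of the genes and no threshold on their values, but it was drawn up with earlier results of these data known. Animals were male wild type C57BL/6N mice aged 20 weeks. The cold group (mice 4, 11 and 15) was kept at 4 °C, each mouse alone, and the ctrl group (mice 2, 9 and 14) at 22 to 24 °C. Both groups had a 12 h light cycle and free access to food and water, and the labels do not say whether control mice were also housed alone. Each mouse gave 1 library of full-length poly(A) cDNA, sequenced without PCR on 2 Oxford Nanopore flow cells, so n = 3 mice per group throughout, and values below are given in the order of the mouse numbers above.

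Nearly all mitochondrial proteins are encoded in the nucleus, made in the cytosol and imported as unfolded precursors. Precursors cross the outer membrane through the TOM complex, and then take separate routes: those with a cleavable presequence go through the TIM23 complex, pulled into the matrix by the import motor, while metabolite carriers are escorted by small TIM chaperones to the TIM22 complex, and outer membrane barrel proteins are passed to the SAM complex. Small cysteine-rich proteins of the intermembrane space are trapped there by the disulfide relay. Brown adipocytes are packed with mitochondria, and Ucp1, the carrier that lets them release energy as heat, belongs to the metabolite carrier family.

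Libraries held 1829442 to 2238056 reads in control mice and 1657985 to 2082203 in cold mice. CPM are reads of a gene relative to the size of its library, with that size adjusted by edgeR's TMM normalisation. By total reads alone, 3 reads would equal 1.34 to 1.81 CPM. On the adjusted scale used here, 1 read equals from 0.465 CPM (control mouse 14) to 0.582 CPM (cold mouse 15). A read stands for 1 cDNA molecule, CPM were not divided by length, and levels of different genes are not compared here. The tissue label was checked against its markers: Ucp1 was at 9700 to 11230 CPM in control and 13670 to 13890 CPM in cold mice. Of 8 brown adipocyte markers, 2 rose (Ucp1 and Pdk4), Cox8b fell and 5 did not pass the test, with a median log2 fold change of 0.03. The 8 lymphocyte markers summed to at most 5.12 CPM in any library. RNA of skeletal muscle varied between libraries. Its 14 markers, none at 0 in all libraries, summed to 194, 532 and 785 CPM in control mice and to 361, 1550 and 3731 CPM in cold mice, so that cold mouse 15 stood apart. All 10 members called below were also called without cold mouse 15, and 7 of the 10 with the muscle sum as a covariate. Markers of other cell types also moved with the cold. The endothelial sum was 337 to 352 CPM in control and 379 to 406 CPM in cold mice, with Kdr called higher and Tek lower among 8 tested. The white adipocyte sum was 72.3 to 109.7 CPM against 131 to 158 CPM, with Nnat and Retn called higher among 5 tested. Lep went the other way without being called (log2 fold change -1.17, adjusted p = 0.558). Of 7 tested fibroblast and preadipocyte markers, Col1a1, Col1a2 and Col3a1 fell, while 3 had positive log2 fold changes and none was called higher. The sum of this list overlapped, at 278 to 336 CPM in control and 239 to 311 CPM in cold mice. The macrophage sum was 67.5 to 96.1 CPM in control and 96.6 to 133 CPM in cold mice. All 5 tested macrophage markers had positive log2 fold changes (median 0.29), and 0 were called. The part of these markers in the changes below, like that of the other markers here save muscle, was not tested. In bulk tissue, a change in the make-up of cell types and a change of RNA per cell cannot be told apart.

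Cold exposure went with modest and mixed changes of the import machinery. Transcripts of 7 members rose, among them Pam16 of the motor, 3 of the 5 small TIM chaperones, Timm17a of the inner membrane channel, Mtx2 of the SAM complex and Chchd4 of the disulfide relay. The outer membrane receptor Tomm20, the channel paralog Tomm40l and the small TIM Timm13 fell. The remaining 23, which include the channel genes Tomm40, Timm23 and Timm22, did not pass the test. By edgeR's quasi-likelihood test at an adjusted p of 0.05, 10 of the 33 members were thus called, against 19.5% of the 8684 genes tested. With only genes at a mean of at least 10 CPM, 10 of 32 members were called, against 24.1% of 6460 genes. DESeq2's Wald test called 4 members, Pam16, Timm8b, Mtx2 and Tomm40l, against 10.7% of genes. By edgeR, higher calls took 9.75% and lower calls 9.77% of the genes tested. All 33 members passed the filter on low counts, down to Tomm34 with 118 reads in all.

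No member changed more than 2-fold, and few genes did so, 504 of the 8684 tested. Log2 fold changes (cold against control, positive when higher in the cold) ran from -0.66 for Tomm40l to 0.73 for Pam16. Their median was 0.10, beside 9e-04 over all genes, and 21 of 33 were positive. The median size of the change, regardless of sign, was 0.23, beside 0.26 over all genes. The median coefficient of variation within a group was 5.35% in control and 6.45% in cold mice. Levels of the cold and control mice did not overlap for 17 members, 11 higher and 6 lower in the cold, against 35.1% of all tested genes. Summed over the 33 genes, the machinery took 4992, 4814 and 5000 CPM in control and 5321, 5216 and 5247 CPM in cold mice.

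**Figure D1:**
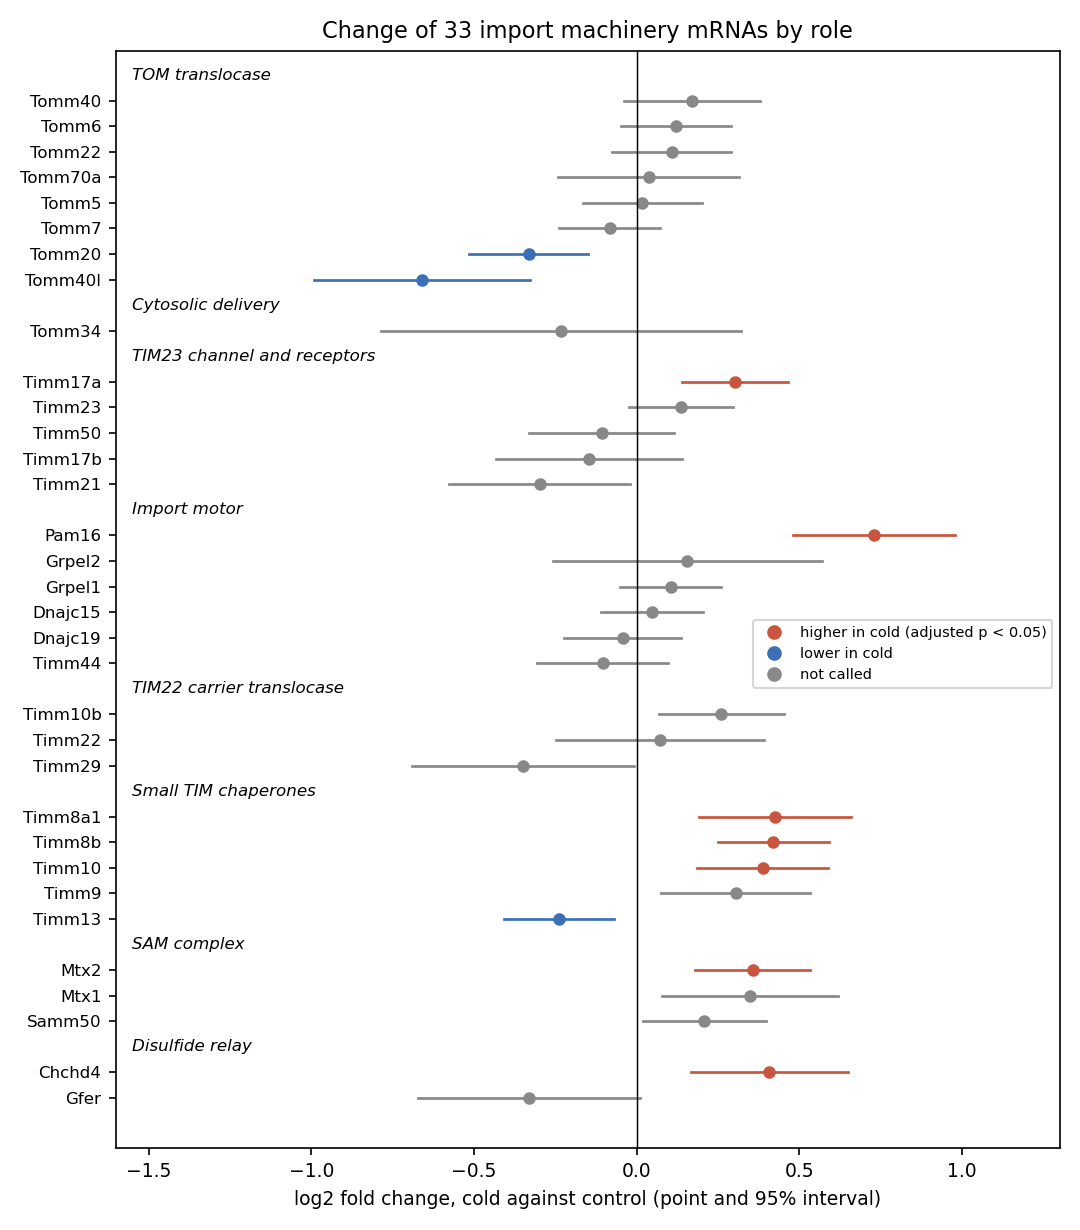
Log2 fold change of each of the 33 import machinery genes, cold against control, grouped by role, with points for the estimate and bars for its 95% interval (3 mice per group). Colours mark the 7 genes called higher, the 3 called lower and the 23 not called at an adjusted p of 0.05, and estimates run from -0.66 to 0.73.

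At the TOM complex, the entry gate of the outer membrane, 2 of 8 genes fell, none rose and the median log2 fold change was 0.03. Tomm20 (chromosome 8, 126930667 to 126945844, minus strand), the receptor that binds presequences, stood at 245, 212 and 236 CPM in control and at 175, 182 and 194 CPM in cold mice. Every cold mouse lay below every control mouse. The fall was 1.26-fold (log2 fold change -0.33, SE 0.09, adjusted p = 0.00962). The call was lost without control mouse 2 (adjusted p = 0.0603), without cold mouse 4 (adjusted p = 0.0604), with DESeq2 (0.0623), on flow cell 2 alone (0.137) and on the 4 libraries left without control mouse 2 and cold mouse 15 (0.0529), at log2 fold changes from -0.40 to -0.26 over all alternatives. The stretch upstream of Tomm20, shown because this was the only member promoter with the 9-base element (in capitals) bound by the proteasome and antioxidant regulators Nfe2l1 and Nfe2l2, runs from 200 bases to 1 base before the RefSeq start (GRCm38.p6, chr8:126945922-126946121, minus strand):
Tomm20: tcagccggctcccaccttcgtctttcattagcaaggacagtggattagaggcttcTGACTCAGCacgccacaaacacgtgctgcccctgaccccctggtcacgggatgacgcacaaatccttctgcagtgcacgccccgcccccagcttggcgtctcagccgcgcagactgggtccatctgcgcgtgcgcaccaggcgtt

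Tomm40l (chromosome 1, 171216011 to 171222514, minus strand), a paralog of the channel protein Tomm40, showed the largest fall of the machinery. Its levels were 38.8, 39.3 and 45.6 CPM in control and 21.3, 30.1 and 27.4 CPM in cold mice, again without overlap. That is a 1.58-fold fall (log2 fold change -0.66, SE 0.16, adjusted p = 0.00485). On flow cell 2 alone it was not called (log2 fold change -0.44, adjusted p = 0.286). Its transcript overlaps the nuclear receptor gene Nr1i3 on the opposite strand over 3304 of 4712 nt, and whether the counting used strand is not given in the sources used here. Nr1i3 had 68 reads against 393 for Tomm40l. Its log2 fold change was also negative but not called (-0.50, adjusted p = 0.376). The part of Nr1i3 in the Tomm40l reads was not tested.

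The TOM genes that form and feed the common channel did not pass the test. Tomm40, the barrel that precursors pass through, was at 93.2, 102 and 106 CPM in control and 122, 111 and 106 CPM in cold mice, with overlapping groups (log2 fold change 0.17, 95% interval -0.04 to 0.38, adjusted p = 0.27). Tomm22, the central receptor that holds the complex together, was at 168, 155 and 155 CPM against 173, 167 and 175 CPM (0.11, -0.08 to 0.29, adjusted p = 0.442). Levels of Tomm70a, the receptor for carrier precursors brought by cytosolic chaperones, were 74.6, 58.2 and 82.8 CPM in control and 65.2, 84.7 and 71.6 CPM in cold mice (0.04, -0.24 to 0.32, adjusted p = 0.888). Tomm70a spread more between control mice than most members, with a coefficient of variation of 17.5%. The small stabilising subunits Tomm5, Tomm6 and Tomm7 had log2 fold changes of 0.02, 0.12 and -0.08, all with overlapping groups. Tomm6 shares 656 nt with the overlapping gene Gm21981, and with the reads of both its log2 fold change was also 0.12. Tomm34, a cytosolic factor that hands precursors to the outer membrane, was at 10.2 to 12.2 CPM in control and 6.99 to 12.0 CPM in cold mice (-0.23, -0.79 to 0.32, adjusted p = 0.61).

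In the TIM23 complex of the inner membrane, 1 of 5 channel and receptor genes rose, none fell, and the median log2 fold change was -0.11. The gene that rose was Timm17a (chromosome 1, 135295213 to 135313778, minus strand), which with Timm23 forms the translocation path. Its levels were 255, 253 and 252 CPM in control and 309, 301 and 327 CPM in cold mice. The control mice were nearly alike, with a coefficient of variation of 0.635%, and all cold mice lay above them. The rise was 1.23-fold (log2 fold change 0.30, SE 0.08, adjusted p = 0.00865). It was not called on flow cell 1 alone (adjusted p = 0.106), with DESeq2 (0.0543), with the muscle covariate (0.0622) or on the 4 libraries (0.0654).

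Timm23, the channel partner, was at 342.5, 342.9 and 363 CPM in control and 362, 408 and 383 CPM in cold mice. These groups overlapped by a narrow margin (log2 fold change 0.14, 95% interval -0.02 to 0.30, adjusted p = 0.25). Timm50, the receptor that takes presequences over from the outer membrane, was at 109.9, 106 and 90.3 CPM against 101.5, 87.7 and 93.8 CPM (-0.11, -0.33 to 0.11, adjusted p = 0.544). Timm21, which links TIM23 to the respiratory chain, was lower in every cold mouse than in every control mouse but did not pass the test (log2 fold change -0.30, adjusted p = 0.13). Timm17b, the second form of Timm17, had a log2 fold change of -0.15 (adjusted p = 0.521).

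The import motor, which uses ATP to draw presequence proteins into the matrix, had 1 gene of 6 that rose and none that fell, with a median log2 fold change of 0.08. Pam16 (chromosome 16, 4616464 to 4624988, minus strand), the J-like protein that restrains the J-domain stimulators of the motor's Hsp70, showed the largest change of the machinery as counted, though not once a near-identical copy is added. Its levels were 51.5, 45.9 and 60.5 CPM in control and 88.4, 83.7 and 90.8 CPM in cold mice, with a wide gap between the groups. The rise was 1.66-fold (log2 fold change 0.73, SE 0.12, adjusted p = 0.000128) and was called under each of the 19 alternatives. A near-identical locus bears on its size: Gm9803, on chromosome 10, shares 534 of the 596 nt of the Pam16 transcript at 100% identity and carried 1801 reads against 815 for Pam16. Gm9803 itself rose 1.35-fold (adjusted p = 0.00133). How the reads divide between the copies is uncertain, but their sum, at 194, 172 and 188 CPM in control and 271, 261.5 and 266 CPM in cold mice, rose 1.44-fold (log2 fold change 0.53, adjusted p = 9.48e-05). This is smaller in size than the -0.66 of Tomm40l.

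The motor's other genes on the member list did not pass. Hspa9, the motor's Hsp70, was read in a further list and rose (log2 fold change 0.34, adjusted p = 0.00333). Timm44, which anchors the motor to the channel, was at 119, 140.3 and 126 CPM in control and 122, 121 and 115 CPM in cold mice (log2 fold change -0.11, 95% interval -0.31 to 0.10, adjusted p = 0.508). Dnajc19 and Dnajc15, the J-domain proteins that Pam16 pairs with, had log2 fold changes of -0.04 and 0.05. Dnajc15 took 336 to 351 CPM in control and 343 to 370.1 CPM in cold mice, and its 95% interval of -0.11 to 0.20 excludes a rise of the size seen in Pam16. Nucleotide exchange factor genes Grpel1 and Grpel2 had log2 fold changes of 0.10 and 0.16. Grpel1 was slightly higher in every cold mouse than in every control mouse (329 to 340.2 against 351 to 366 CPM), yet its adjusted p was 0.376.

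The small TIM chaperones, which form hexameric rings that shield hydrophobic precursors between the membranes, held the most calls of any role: 3 of 5 rose, 1 fell and the median log2 fold change was 0.39. Timm8b (chromosome 9, 50603910 to 50605320, plus strand) was at 233, 219 and 233 CPM in control and 311, 285 and 321 CPM in cold mice. All cold mice were above all control mice, by 1.34-fold on average (log2 fold change 0.42, SE 0.08, adjusted p = 0.000755), and each of the 19 alternatives called it. The stretch from 110 bases to 1 base before its RefSeq start (GRCm38.p6, chr9:50603791-50603900, plus strand) is shown because it was the only member promoter with the full element of the estrogen-related receptors, regulators of mitochondrial genes, in capitals:
Timm8b: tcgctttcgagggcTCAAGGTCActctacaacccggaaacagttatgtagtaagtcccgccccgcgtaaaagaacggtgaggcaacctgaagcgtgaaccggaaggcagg

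Timm8a1 (chromosome X, 134537256 to 134541865, minus strand), the counterpart of the human deafness dystonia gene, was at 68.9, 63.3 and 65.1 CPM in control and 79.2, 97.7 and 87.9 CPM in cold mice. The groups did not overlap, and the rise was 1.34-fold (log2 fold change 0.43, SE 0.11, adjusted p = 0.00949). It was not called without cold mouse 11 (adjusted p = 0.0653), on flow cell 1 alone (0.0833), with DESeq2 (0.0816) or with the muscle covariate (0.0712). A near-identical locus, Gm9797, shares 612 nt with Timm8a1 at 100% identity and had 117 reads against 893, and the sum of both rose 1.31-fold (adjusted p = 0.012). Timm10 (chromosome 2, 84826997 to 84830213, plus strand), which with Timm9 forms the ring that escorts metabolite carriers, was at 90.3, 83.7 and 90.7 CPM in control and 117, 117 and 112 CPM in cold mice. That is a 1.31-fold rise without overlap (log2 fold change 0.39, SE 0.10, adjusted p = 0.00665), not called with DESeq2 (adjusted p = 0.0691) or on flow cell 2 alone (0.404). Timm9 itself was also higher in every cold mouse (67.5 to 74.6 against 78.3 to 92.7 CPM), with a log2 fold change of 0.30 that missed the threshold (adjusted p = 0.0578).

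Timm13 (chromosome 10, 80899450 to 80900969, minus strand), which forms a ring with Timm8 proteins, went the other way. Its levels were 284, 261 and 270.3 CPM in control and 225, 226 and 240.5 CPM in cold mice, without overlap. The fall was 1.18-fold (log2 fold change -0.24, SE 0.08, adjusted p = 0.0425). This was the least stable of the 10 calls, made under 9 of 19 alternatives: it was lost without control mouse 2 (adjusted p = 0.156), control mouse 14 (0.101), cold mouse 4 (0.137) or cold mouse 11 (0.118). Genes with short transcripts were more often lower in the cold, with 17.0% called lower among those of 751 to 1500 nt, the range of Timm13, and 5.50% among those over 6000 nt. With an offset for transcript length the Timm13 call was lost (log2 fold change -0.20, adjusted p = 0.0929) and the other 9 calls were kept, while Timm9 (0.35, adjusted p = 0.0314) and Mtx1 (0.38, adjusted p = 0.0463) were called higher in addition.

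None of the 3 genes of the TIM22 carrier translocase passed the test. Timm22, its channel, was at 58.4, 55.1 and 42.8 CPM in control and 47.4, 49.1 and 68.1 CPM in cold mice (log2 fold change 0.07, 95% interval -0.25 to 0.39, adjusted p = 0.804). Timm10b, the small TIM docked on the complex, was higher in every cold mouse (125 to 143 against 152 to 168 CPM) with a log2 fold change of 0.26 just short of the threshold (adjusted p = 0.0536). On flow cell 2 alone Timm10b was called higher (0.42, adjusted p = 0.0292). Timm29, a subunit particular to animals, was lower in every cold mouse (30.6 to 32.4 against 21.3 to 28.6 CPM), with a log2 fold change of -0.35 (adjusted p = 0.149).

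All 3 genes of the SAM complex, which inserts barrel proteins into the outer membrane, had positive log2 fold changes, and 1 passed the test (median 0.35). Mtx2 (chromosome 2, 74825803 to 74878431, plus strand), a metaxin on the cytosolic face of the complex, was at 178, 179 and 187 CPM in control and 247, 221 and 229 CPM in cold mice. The cold mice lay clear of the control mice, and the rise was 1.28-fold (log2 fold change 0.36, SE 0.08, adjusted p = 0.00433). On flow cell 1 alone it was not called (log2 fold change 0.24, adjusted p = 0.102). Mtx1, the other metaxin, was at 37.6 to 41.9 CPM in control and 47.2 to 54.6 CPM in cold mice, with a log2 fold change of 0.35 (adjusted p = 0.0659). Samm50, the barrel that does the inserting, was at 228, 208 and 243 CPM in control and 289, 238 and 257 CPM in cold mice, and the groups overlapped (log2 fold change 0.21, 95% interval 0.02 to 0.40, adjusted p = 0.12). Upstream of Mtx2 lies the element of GABP, an activator of many nuclear genes for mitochondria. Of the 6 members with this element, Mtx2 and Timm10 were called, and that of Timm10 lies after the start. The stretch from 150 to 10 bases before the RefSeq start of Mtx2 (GRCm38.p6, chr2:74825662-74825802, plus strand) is shown because Mtx2 was called and carried the element, in capitals, before the start:
Mtx2: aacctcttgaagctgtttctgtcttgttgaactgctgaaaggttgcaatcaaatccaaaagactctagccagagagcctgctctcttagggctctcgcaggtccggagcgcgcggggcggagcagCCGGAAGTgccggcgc

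The disulfide relay consists of Chchd4, the oxidoreductase that folds incoming cysteine-rich proteins, and Gfer, the sulfhydryl oxidase that recharges it. Chchd4 (chromosome 6, 91462172 to 91473546, minus strand) was at 54.4, 53.1 and 60.9 CPM in control and 79.2, 69.6 and 75.1 CPM in cold mice. It rose 1.33-fold without overlap (log2 fold change 0.41, SE 0.12, adjusted p = 0.015). The call was lost without control mouse 2 (adjusted p = 0.0558), control mouse 9 (0.0661) or cold mouse 4 (0.0758), with DESeq2 (0.126), on flow cell 2 alone (0.174) and on the 4 libraries (0.0959). Gfer (chromosome 17, 24693187 to 24696156, minus strand) was at 32.4, 28.6 and 29.3 CPM in control and 26.1, 22.0 and 23.3 CPM in cold mice, lower in every cold mouse, but it did not pass the test (log2 fold change -0.33, 95% interval -0.67 to 0.01, adjusted p = 0.173).

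The lower total of Gfer lay in transcripts annotated as targets of nonsense-mediated decay, the pathway that degrades mRNAs with premature stop codons. These held 28 of 56, 26 of 56 and 19 of 63 Gfer reads in control mice (50%, 46.4% and 30.2%) and 11 of 54, 10 of 44 and 11 of 40 in cold mice (20.4%, 22.7% and 27.5%). The groups did not overlap, though control mouse 14 (exact binomial 95% interval 19.2 to 43.0%) lay close to cold mouse 15 (14.6 to 43.9%). Intervals of this kind cover counting error only. With protein-coding transcripts alone, the log2 fold change of Gfer was 0.09 (adjusted p = 0.829). This share was singled out after its values were seen, and the usage test, which needed a lower count filter to include Gfer, gave a p of 0.0687 and an adjusted p of 1. Gfer shares 573 nt, in reverse orientation, with Dst on chromosome 1, a cytoskeletal linker. Dst had 338 reads against 313 and was lower in the cold (log2 fold change -0.53, adjusted p = 0.0342). Its part in the Gfer reads was not tested.

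**Figure D2:**
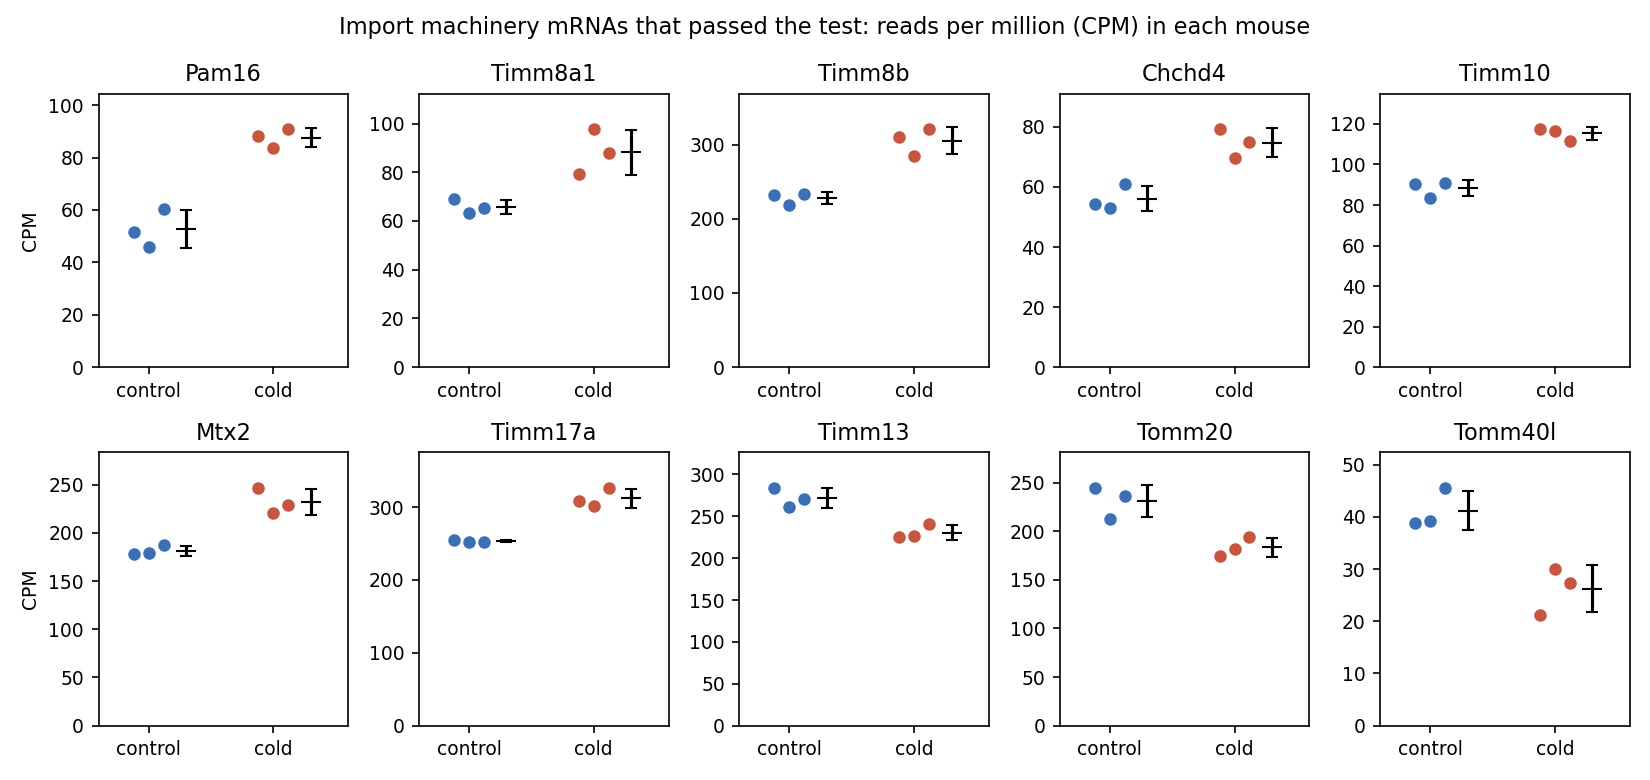
Read counts scaled to TMM-adjusted library size (CPM) in each mouse (points) for the 10 import machinery genes that passed the test. The group mean and SD are beside them, for 3 control and 3 cold mice, with each axis starting at 0. In all 10 panels the groups do not overlap; Pam16 shows the widest relative gap, from at most 60.5 CPM in control to at least 83.7 CPM in cold mice.

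Paralogs and ring partners were compared as shares of their joint reads. Tomm40l made up 29.4%, 27.8% and 30.1% of Tomm40 and Tomm40l reads in control mice and 14.9%, 21.3% and 20.5% in cold mice, a difference of -10.2 percentage points. Timm17b made up 15.8%, 13.5% and 14.5% of the Timm17 reads in control and 10.8%, 12.3% and 10.4% in cold mice. Timm13 made up 55.0%, 54.4% and 53.7% of Timm13 and Timm8b reads in control and 42.0%, 44.2% and 42.8% in cold mice, a pair picked after its values were seen. In each of these, as in the decay-class share of Gfer, cold and control mice did not overlap. By an exact two-sided permutation test each gave p = 0.1, the smallest that 3 against 3 mice allow, and 0.225 after Benjamini-Hochberg adjustment over the 9 shares computed. Shares of Grpel2 in the exchange factors (exact p = 0.8), Dnajc19 in the J proteins (0.5) and Timm8a1 in the Timm8 pair (1) overlapped between the groups. Timm8a1 and Timm8b thus rose side by side, at 22.4% ± 0.502 of their joint reads from Timm8a1 in control and 22.5% ± 2.73 in cold mice (SD, n = 3).

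Long reads also gave counts per annotated transcript. Members had 135 transcripts with a read, of which 51 passed the filter on low counts, and 10 of these were called, against 16.3% of the 11699 transcripts tested. For 9 of the 10 called genes it was the transcript numbered 201 that was called, in the direction of the gene; no Timm13 transcript was. The other called transcript was Timm9-202, a protein-coding form with 59.7%, 59.7% and 60.7% of the Timm9 reads in control and 65.4%, 65.4% and 69.0% in cold mice. It rose (log2 fold change 0.44, SE 0.14, adjusted p = 0.0235), while Timm9-201 had a log2 fold change of -0.01 (adjusted p = 0.987). The shift in shares was not called. Of 12 members tested for transcript usage with edgeR's diffSpliceDGE, 0 were called and 0 had an unadjusted p under 0.05 (lowest 0.272, Timm17b), against 0.195% of 2568 genes tested. Tomm6-203, annotated with a retained intron, was assigned 33.1% to 36.1% of the Tomm6 reads in control and 33.6% to 34.3% in cold mice. Coverage of the intron itself was not examined.

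Both flow cells of a library gave the same direction for each of the 10 called members, and for 28 of the 32 members tested on both. The flow cells share their libraries, so this is a repeat of the sequencing and not of the animals. Pam16 had a log2 fold change of 0.72 on flow cell 1 and 0.69 on flow cell 2, and Timm8b had 0.35 and 0.50. The members whose sign differed, Tomm5, Tomm7, Tomm70a and Timm22, were all among those not called.

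**Figure D3:**
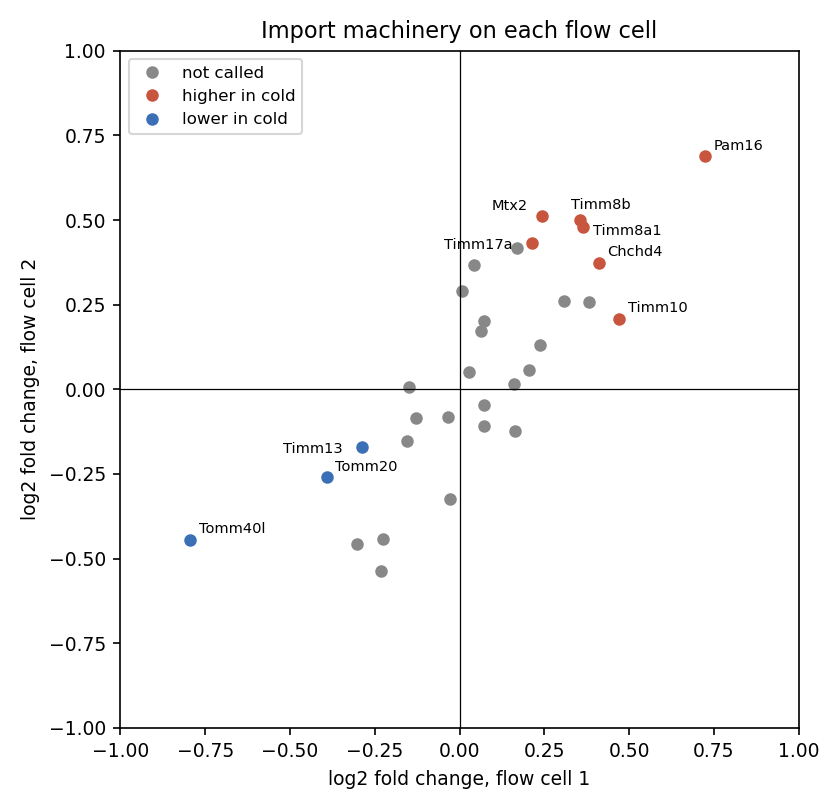
Log2 fold change, cold against control, of the 32 import machinery genes tested on both flow cells, from flow cell 1 alone (horizontal axis) and flow cell 2 alone (vertical axis), coloured by the call from both together. All 10 called genes lie in the lower left or upper right quadrant, Pam16 farthest out at 0.72 and 0.69.

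Genes that act just before or after the import machinery were read from 6 further lists, of which 61 genes were tested. Of these, 13 rose and 6 fell. Over all 8684 genes tested, 9.75% were called higher and 9.77% lower, the shares to set beside each list below. Cytosolic chaperones that keep precursors unfolded gave 5 rises and no fall among 11 (median log2 fold change 0.26), led by Hsp90aa1 (1.01, adjusted p = 0.0011) and Hspa8 (0.87, adjusted p = 0.0084), the stress-inducible Hsp90 and the constitutive Hsp70, followed by Hsp90ab1 and Ubqln1. Presequence processing and matrix folding genes were split, with 3 rises and 3 falls among 13. The inner membrane peptidase subunit Immp2l fell 4.08-fold (log2 fold change -2.03, adjusted p = 8.92e-10), from 77.5, 76.0 and 89.3 CPM in control to 21.3, 21.04 and 16.9 CPM in cold mice, a larger change than that of any member. Hspa9, the Hsp70 that drives the motor, rose from 513 to 600 CPM in control to 659 to 747 CPM in cold mice (log2 fold change 0.34, adjusted p = 0.00333). The matrix J protein Dnaja3 also rose (0.63, adjusted p = 8.68e-06), and Dnlz, an escort of Hspa9, fell (-0.45, adjusted p = 0.0173).

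Genes listed with the disulfide relay did not move as one: among 17, 3 rose and 3 fell, with a median log2 fold change of -0.003. Cmc2 (0.57, adjusted p = 0.000279) and Chchd2 (0.44, adjusted p = 2.95e-05), small twin-cysteine proteins, rose, while Cox19 (-0.43, adjusted p = 0.00282), a cytochrome c oxidase assembly factor, and Chchd1 (-0.29, adjusted p = 0.041), a ribosomal protein, fell. Of 7 other outer membrane import genes, Atad1, which extracts misplaced proteins, rose (0.89, adjusted p = 0.000147), as did the third metaxin Mtx3 (0.71, adjusted p = 0.0313). Among the 7 insertases and TIM23 partners 0 were called, with the lowest p-values in Cox18 (adjusted p = 0.401) and Romo1 (0.412). The cristae-organising MICOS complex likewise had 0 calls among 6, with Chchd6 (log2 fold change -0.47, adjusted p = 0.0506) and Apool (adjusted p = 0.216) nearest.

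Promoter windows from 250 bases before to 50 after the RefSeq start were found for 29 members, all but Grpel2, Tomm40l, Tomm7 and Timm21, and 11 motifs were searched on both strands. The GABP element CCGGAAGT, seen above for Mtx2, was in 6 members (Mtx2, Timm10, Timm10b, Timm23, Timm29 and Tomm70a), 20.7%, beside 10.8% of the tested genes with a window and 4.31% of all genes. Of these 6, Mtx2 and Timm10 were called. The estrogen-related receptor element TCAAGGTCA was in Timm8b alone, 96 bases before the start, and in 0.266% of tested genes. The Nfe2l1 and Nfe2l2 element TGACTCAGC was in Tomm20 alone, 145 bases before the start, and in 0.562% of tested genes. The full palindrome of NRF1 was in 0 members and 2.63% of tested genes, and its shorter core GCATGCG, contained in it, in 2 members (6.90%, beside 7.99%). The cAMP response element TGACGTCA was in 0 members and 3.89% of tested genes, and its shorter core TGACG, contained in it, in 13 members (44.8%, beside 38.1%). For the YY1 element AAGATGGC the count was 2 members (6.90%, beside 6.17%), for the ATF4 element TGATGCAA 0 (beside 0.71%), for the heat shock element of alternating GAA and TTC units 1, Timm9 (3.45%, beside 0.651%), and for the CCAAT box 9 (31.0%, beside 42.5%). These are matches of letters in fixed windows, with no measure of binding.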

How the data were processed

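Whole-number counts of reads per transcript, 1 table per library and flow cell, are the values the authors deposited, per the file headers. Reads were mapped with minimap2 to GRCm38, per the submitters' processing notes. Not given in the sources used here are the annotation release, read filters, whether strand was used and how reads that fit several transcripts were treated. The labels' extraction text names another fat depot at 1 step, while the tissue fields name interscapular brown adipose tissue, which was followed.

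Of 59543 transcripts with a read, 59371 matched GENCODE M21; the other 172 held 0.0836% of 11789059 reads and were left out. Counts were summed over 2 flow cells and over the transcripts of a gene. Mitochondrially encoded RNA took 29.7 to 32.5% of reads in control and 27.6 to 29.0% in cold mice.

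Genes and transcripts were tested over all 6 libraries with edgeR 4.0.16 (R 4.3.3; TMM, filterByExpr, robust glmQLFit and glmQLFTest) and Benjamini-Hochberg adjustment over all features tested, at 0.05; every adjusted p for a gene or transcript is from this test unless another is named. SE and 95% intervals are on the log2 scale. Alternatives were DESeq2 1.42.0, its size factors, no filter, a mean of at least 10 CPM, either flow cell, no mitochondrially encoded genes, a length offset, protein-coding transcripts only and each mouse left out, and, chosen after seeing the data, the older edgeR fit, a muscle covariate, a fit on 4 libraries and addition of near-identical copies. Scripts were tested on simulated data. Shares used exact permutation tests. P-values measure the spread between these mice. Copies were sought with minimap2 2.31 at 200 nt and 95% identity or more. Promoter sequences are RefSeq's, on GRCm38.p6.

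Members and lists were chosen with earlier results of these data known. Every mouse's value is given for called members and for Tomm22, Tomm40, Tomm70a, Timm23, Timm50, Timm44, Timm22, Samm50 and Gfer; in each related list, up to 4 called genes by size or the 2 with the lowest p are named.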

Additional observations from a re-analysis of the deposited data

How the results depend on the processing

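No paired analysis was made, because the mouse numbers of the groups differ and the labels give no pairing or batch. The 10 members called (7 higher, 3 lower) became 4 (3 and 1) with DESeq2's Wald test, under which 10.7% of all genes were called; 6 on flow cell 2 alone, 5 of the 10 and Timm10b, with 0 lower; and 6, with 1 lower, on 4 libraries without control mouse 2 and cold mouse 15. Flow cell 1 alone gave 4 higher. Leaving out each mouse gave 7 to 11 called, 6 to 8 higher and 1 to 3 lower (1 without control mouse 2, and 1 without cold mouse 4). The share of all genes called, 19.5%, also fell, to 14.6 to 15.6% with a mouse left out. It was 17.7% on flow cell 1, 15.7% on flow cell 2, 12.1% on the 4 libraries and 13.8% with the muscle covariate. The members' median log2 fold change of 0.10 was 0.054 on flow cell 2 and 0.083 to 0.117 with a mouse left out. Related genes called, 19, were 11 with DESeq2, 12 on flow cell 2 and 11 to 17 with a mouse left out (11 without control mouse 14). Called transcripts, 10, were 6 on flow cell 1, 5 on flow cell 2 and 6 to 9 with a mouse left out (6 without control mouse 14 or cold mouse 4). Usage gave 0 calls in all 10 alternatives. Pam16 and Timm8b were called in all 19 alternatives, Mtx2 and Tomm40l in 18, Timm10 in 17, Timm17a and Timm8a1 in 15, Tomm20 in 14, Chchd4 in 13 and Timm13 in 9. Among the 19 members followed through every alternative, signs turned for 3 that were not called: Gfer to 0.089 with protein-coding transcripts; Tomm70a to -0.046 on flow cell 2, -0.006 with the length offset and -0.035 with the muscle covariate, with a range of -0.103 (without control mouse 9) to 0.153 when a mouse was left out; Timm22 to -0.122 on flow cell 2, -0.02 with the muscle covariate and -0.013 on 4 libraries, with a range of -0.099 (without cold mouse 15) to 0.168 when a mouse was left out. Of the other members, compared only on each flow cell and with the length offset, Tomm5 and Tomm7 turned on flow cell 2 (-0.11 and 0.006) and Dnajc19 with the length offset (0.018). Where calls were lost the cause was not tested. Fits on 1 flow cell or with mice left out used fewer reads or mice, and the part of this was not tested either. Tomm34, Grpel2, Gfer and Timm29 had the fewest reads, 118 to 327 each, and the widest intervals.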
